A study of Mus musculus with 6 samples.

Results

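The genes described here are 8 markers of type 1 alveolar epithelial cells, Ager, Hopx, Rtkn2, Aqp5, Clic5, Akap5, Pdpn and Emp2. They were taken by symbol from the 31130 genes counted in each tumor, and the IP + LC tumors were compared with the LC tumors. RNA came from tumor tissue of 3 mice of the LC (lung cancer alone) model and 3 mice of the IP + LC (lung cancer with interstitial pneumonia) model. All were wild-type by their labels, and the methods give female C57BL/6 mice for the Lewis lung carcinoma (LLC) line. LLC cells, a mouse lung cancer line, were injected through the pleura into the left lung on day 14 in both groups, and tumors were collected on day 21. The IP + LC mice had first received 2.0 mg/kg of bleomycin, which damages the alveoli and is used to model lung fibrosis, whereas the study's scheme of the model gives saline for the LC mice. The cancer cells are 1 line, and both groups share it. The labels name the cell type as lung cancer cells, but no sort is described, and genes of alveolar, airway and vascular cells were measured in every tumor.

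Type 1 alveolar epithelial cells are the thin, flat cells that line most of the gas-exchange surface of the lung. Type 2 alveolar cells make surfactant and act as progenitors that can flatten into new type 1 cells after injury, a step that bleomycin models are often used to study. Ager, Hopx and Rtkn2 are among the genes commonly used to recognise type 1 cells, while Pdpn is also made by lymphatic endothelium, mesothelium, some fibroblasts and many tumor cells.

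All 8 genes were found in all 6 libraries, with 25 to 2042 unique molecular identifiers (UMIs, counts of single RNA molecules) per gene and library, and all 8 had enough UMIs for the test. The libraries held 592733 UMIs in LC replicate 1 and 1336919 to 1631066 in the other 5 tumors. LC replicate 1 also stood apart in its correlation with the other LC tumors across genes, which was 0.766 to 0.810, against 0.955 between LC replicates 2 and 3 and 0.960 to 0.967 between the IP + LC tumors. Mitochondrial genes took 3.84% to 12.0% of UMIs in the LC tumors and 4.40% to 8.32% in the IP + LC tumors. Levels are given as counts per 1e6 UMIs of tested genes after TMM scaling (CPM).

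The upstream sequences of Ager and Emp2, which fell, and of Pdpn, which did not pass the test, are shown as examples. RefSeq gave promoters on GRCm38.p6 for 7 of the 8 genes (not Rtkn2), with 2 starts for Hopx. The 250 bases before each start were searched on both strands for the core motif of the TEAD factors (GGAATG), the core of NKX2-1 (CAAGNG) and the AP-1 motif (TGANTCA). TEAD factors and NKX2-1 are known regulators of type 1 cells. Matches are in capitals, and those of Ager and Emp2 below are both NKX2-1 cores.
Ager, chr17:34597600-34597849, plus strand: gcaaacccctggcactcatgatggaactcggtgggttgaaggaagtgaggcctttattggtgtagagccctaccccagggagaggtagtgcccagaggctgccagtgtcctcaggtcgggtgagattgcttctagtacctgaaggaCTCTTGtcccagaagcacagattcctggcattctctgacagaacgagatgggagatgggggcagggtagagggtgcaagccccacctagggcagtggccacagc
Emp2, chr16:10313969-10314218, minus strand: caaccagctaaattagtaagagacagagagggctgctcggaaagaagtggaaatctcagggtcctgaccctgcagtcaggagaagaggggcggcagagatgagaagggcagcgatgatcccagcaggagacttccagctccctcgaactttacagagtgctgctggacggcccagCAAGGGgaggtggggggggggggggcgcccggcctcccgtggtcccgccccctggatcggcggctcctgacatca
Pdpn, chr4:143299565-143299814, minus strand: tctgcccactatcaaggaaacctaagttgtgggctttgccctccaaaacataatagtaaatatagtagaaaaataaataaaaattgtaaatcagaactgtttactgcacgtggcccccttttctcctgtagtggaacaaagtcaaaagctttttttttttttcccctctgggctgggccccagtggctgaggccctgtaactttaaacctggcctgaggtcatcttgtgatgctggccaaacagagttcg
The NKX2-1 core was found before Ager, Emp2 and Akap5, 1 match each, and in 40.6% of all 32851 promoter windows of the same length. The windows of Hopx, Aqp5 and Clic5, which also fell, had 0 matches, as did that of Pdpn. The TEAD core, present in 12.6% of all windows, and the AP-1 motif, present in 6.75%, had 0 matches in the 8 windows of these genes. These letters describe the windows and carry no information on binding.

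Of the 8 type 1 genes, 7 were lower in the IP + LC tumors (adjusted p below 0.1 over 11240 genes, from the quasi-likelihood test of edgeR), 0 were higher, and Pdpn did not pass. Among all tested genes, 36.4% passed, 19.6% in the downward and 16.8% in the upward direction. The 7 genes were all lower by more than 2-fold, which was found for 13.5% of all tested genes. The median log2 fold change of the 8 genes was -1.48, against 0.02 for all tested genes. For 6 of the 8 genes, every IP + LC tumor was below every LC tumor, which held for 21.5% of all tested genes, and the opposite order was found for 0 of the 8 genes and 21.6% of all. CPM is a share of the RNA of the whole tissue piece. Fewer type 1 cells, less RNA per type 1 cell and more RNA from other cells therefore cannot be told apart here. By flow cytometry at a later day, the paper reports a larger cancer cell fraction in the IP + LC model. Its part in these levels was not tested.

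**Figure D1:**
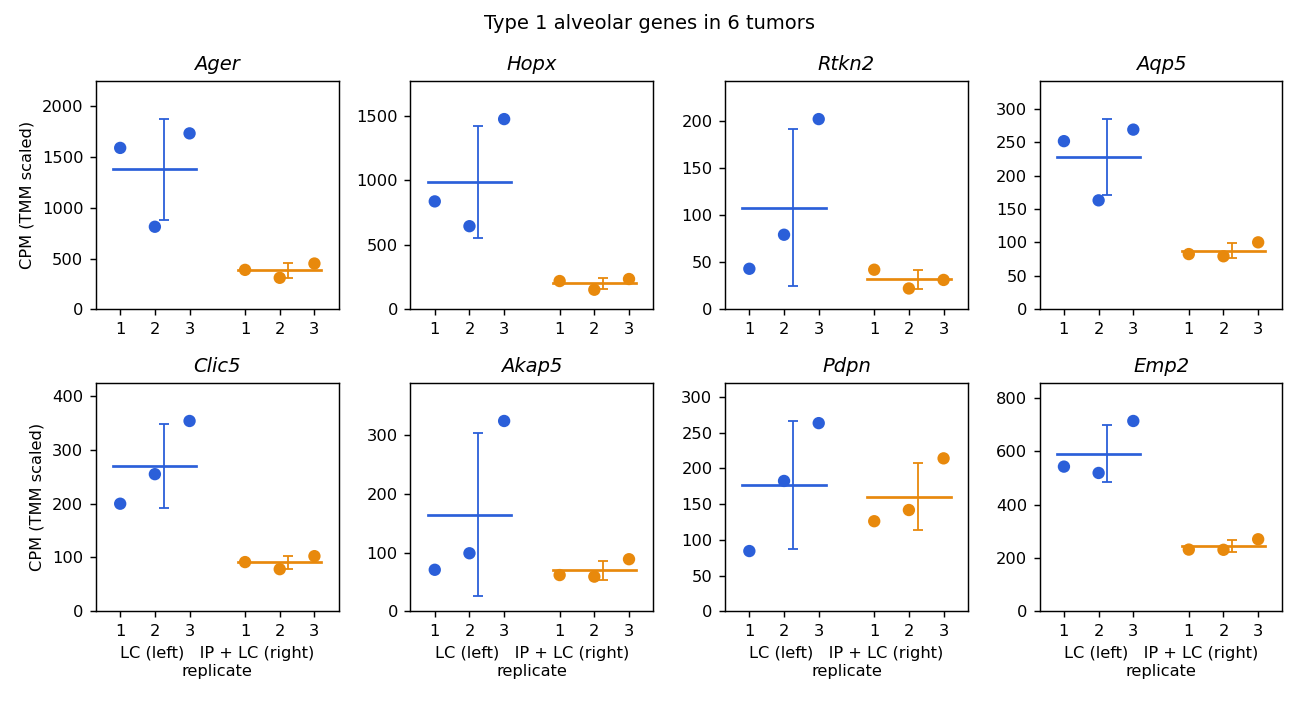
CPM (linear axis from 0) of the 8 type 1 genes in each tumor, LC in blue and IP + LC in orange, with the replicate number below. Horizontal lines are group means and bars are SD (n = 3). The groups do not overlap for 6 genes, and they overlap for Akap5 and Pdpn.

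Ager encodes the receptor for advanced glycation end products, a membrane receptor that type 1 cells carry at a high level on their basal side. It lies on chromosome 17 of GRCm38 from 34597862 to 34600936. Ager had 1588, 812 and 1730 CPM in LC replicates 1, 2 and 3, and 389, 311 and 451 CPM in the IP + LC tumors. Every IP + LC tumor was below every LC tumor, and LC replicate 2 was the lowest of its group. The mean fell from 1377 ± 494 to 383 ± 70.4 CPM (SD, n = 3), or by 1.84 on the log2 scale (SE 0.31, adjusted p = 0.00390).

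Hopx, an unusual homeodomain protein that does not bind DNA and marks differentiated type 1 cells, showed the largest change of the 8. It lies on chromosome 5 from 77086988 to 77115121. Its levels were 837, 645 and 1475 CPM in the LC tumors and 220, 152 and 235 CPM in the IP + LC tumors. The groups were again separate, although LC replicate 3 was far above the other LC tumors. The log2 fold change was -2.28 ± 0.34 (SE, adjusted p = 0.00225). The antisense gene Hopxos covers 27.2% of the exonic sequence of Hopx, and whether the counting used the strand is not given in the sources used here. Hopxos had 0 to 6 UMIs per library, and the stretch it shares with the longest Hopx transcript lies 829 nt from the 3′ end of that transcript.

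Rtkn2 and Akap5 encode intracellular signaling proteins. Akap5 is an anchoring protein that holds protein kinase A near the plasma membrane. Rtkn2, on chromosome 10 from 67979570 to 68059740, had 43.0, 79.1 and 202 CPM in the LC tumors and 42.1, 22.2 and 31.2 CPM in the IP + LC tumors. The groups did not overlap, but LC replicate 1 and IP + LC replicate 1 were almost level, at 25 and 58 UMIs. The log2 fold change of Rtkn2 was -1.80 ± 0.50 (SE, adjusted p = 0.0287). With IP + LC replicate 2 left out, Rtkn2 did not pass (-1.56, adjusted p = 0.137), nor did it with IP + LC replicate 3 left out (-1.76, adjusted p = 0.102), and leaving out LC replicate 3 gave -1.02. The antisense gene Gm16212 covers 3.89% of the exonic sequence of Rtkn2, with the shared stretch 3383 nt from the 3′ end of the longest transcript, and had 0 to 3 UMIs per library.

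Akap5, on chromosome 12 from 76324891 to 76334153, had 70.6, 98.7 and 324 CPM in the LC tumors and 61.6, 59.0 and 88.6 CPM in the IP + LC tumors. LC replicate 3 was more than 3-fold above the other LC tumors, and IP + LC replicate 3 was above LC replicate 1. The log2 fold change was -1.26 ± 0.51 (SE, adjusted p = 0.0961), close to the limit. Without LC replicate 3 it was -0.32 (adjusted p = 0.453), so the size of the change of Akap5 rests on that tumor. It also did not pass when LC replicate 2 (adjusted p = 0.1002) or any 1 of the IP + LC tumors was left out (adjusted p = 0.156 to 0.279).

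Aqp5 and Clic5 encode membrane transport proteins. Aquaporin 5 is the water channel of the apical face of type 1 cells and is also made in airway glands, and Clic5 belongs to the chloride intracellular channel family and is linked to the cortical cytoskeleton. Aqp5 lies on chromosome 15 from 99590782 to 99594829. It had 251, 163 and 269 CPM in the LC tumors and 82.7, 79.4 and 100.2 CPM in the IP + LC tumors. The log2 fold change of Aqp5 was -1.38 ± 0.24 (SE, adjusted p = 0.00471). Clic5, on chromosome 17 from 44188584 to 44280172, had 200 (199.7), 255 and 353 CPM in the LC tumors and 91.4, 78.2 and 102 CPM in the IP + LC tumors. Its log2 fold change was -1.58 ± 0.25 (SE, adjusted p = 0.00321). Neither gene overlapped between the groups, and both IP + LC groups were tight, with a coefficient of variation (CV) of 12.8% and 13.3%.

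Emp2 and Pdpn encode surface proteins of the cell membrane. Emp2 is a tetraspan protein that acts on caveolae and integrins, and podoplanin is a mucin-like glycoprotein known as an early marker of type 1 cells. Emp2, on chromosome 16 from 10281749 to 10313968, had 542, 519 and 714 CPM in the LC tumors and 231.3, 230.6 and 270.1 CPM in the IP + LC tumors. It had the smallest spread of the 8 genes in both groups (CV 18.0% and 9.27%), and its log2 fold change was -1.28 ± 0.21 (SE, adjusted p = 0.00354). Stretches that make up 2.79% of the longest Emp2 transcript have near-identical copies in other genes and lie at least 904 nt from its 3′ end. Over all Emp2 transcripts, 39 other genes hold such copies.

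Pdpn, on chromosome 4 from 143267431 to 143299564, had 84.4, 183 and 264 CPM in the LC tumors and 126, 142 and 214 CPM in the IP + LC tumors. The ranges of the groups overlapped almost completely. The log2 fold change was -0.16 ± 0.38 (SE, adjusted p = 0.791), with a 95% interval from -1.01 to 0.70, so that a 2-fold decrease lies just inside it. LC replicate 1 had the lowest value, and without it the log2 fold change of Pdpn was -0.46 (adjusted p = 0.0737), past the limit, which made 8 of 8 genes lower, against 28.7% of all genes tested without that tumor.

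The log2 ratio of each other gene to Ager within a tumor (0.5 UMIs added to each count) does not depend on the scaling of the libraries. The ratio of Pdpn to Ager was -4.22, -2.15 and -2.71 in the LC tumors and -1.62, -1.13 and -1.07 in the IP + LC tumors, a difference of the group means of 1.75 (exact two-sided permutation test, p = 0.1, the smallest that 3 against 3 tumors allow, and 0.35 after adjustment over 7 ratios). Relative to Ager, Pdpn was higher in 3 of 3 IP + LC tumors. The ratio of Aqp5 to Ager also separated the groups, by 0.43 (exact permutation p = 0.1). For the other 5 genes the groups overlapped, with differences from -0.43 for Hopx to 0.85 for Akap5 (exact permutation p = 0.2 to 0.9). This design cannot reach 0.05 for any of these ratios. Without LC replicate 1 the differences were 1.16 for Pdpn, 0.38 for Aqp5, 0.27 for Akap5, -0.38 for Rtkn2 and -0.087 for Clic5. The sizes thus depend in part on that shallow library.

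**Figure D2:**
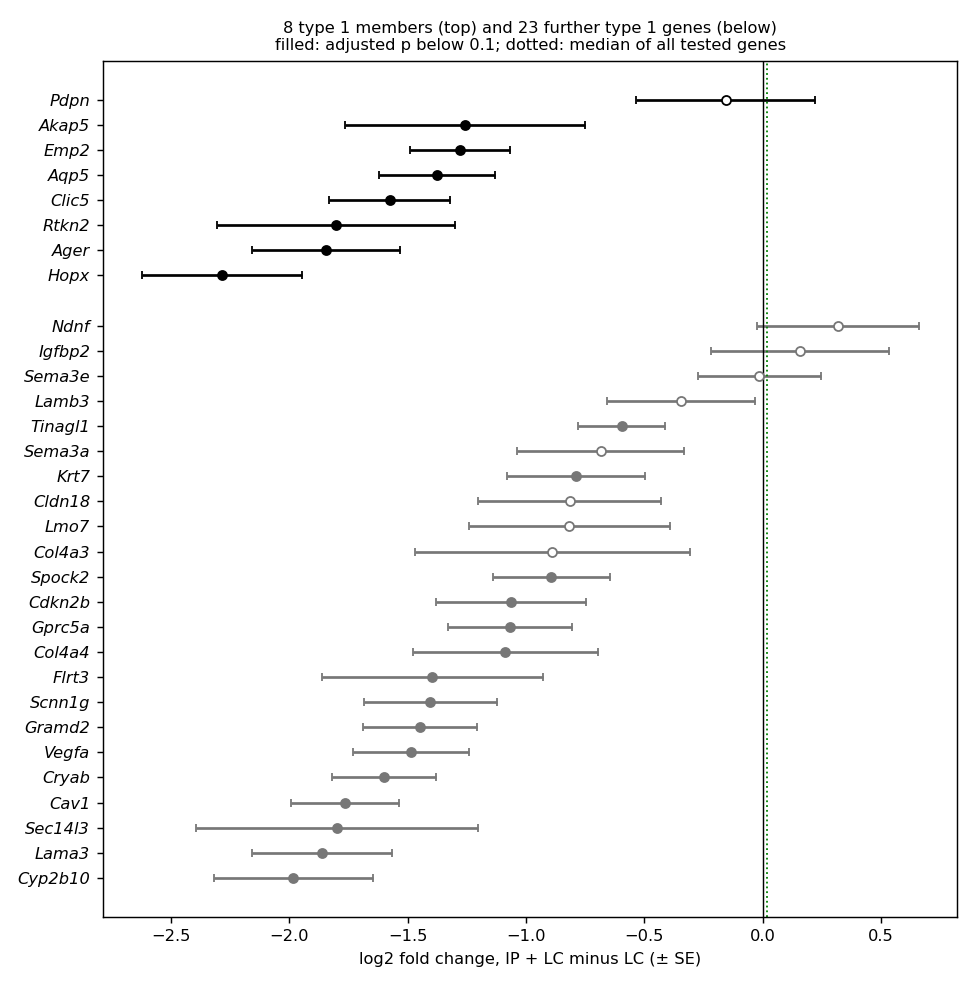
Log2 fold change of IP + LC over LC with its standard error for the 8 type 1 genes (black) and 23 further type 1 genes (grey), both ordered by value. Filled points have an adjusted p below 0.1 and the dotted line is the median of all tested genes (0.02). All genes that passed lie to the left of 0.

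A wider list of 24 further genes known from type 1 cells held 23 genes in the tables, all tested. Of these, 15 were lower, 0 were higher and 8 did not pass, against 19.6% lower and 16.8% higher among all tested genes, with a median log2 fold change of -1.06. Cav1, which encodes the coat protein of caveolae and is also abundant in endothelium, fell from 947 ± 143 to 279 ± 48.8 CPM (SD, n = 3), or by 1.76 on the log2 scale (adjusted p = 0.00138). Cyp2b10, a cytochrome P450, and Lama3, a laminin chain of the epithelial basement membrane, had log2 fold changes of -1.98 (adjusted p = 0.00381) and -1.86 (adjusted p = 0.00303).
Sec14l3 spread widely within the LC group, at 145, 809 and 1171 CPM, against 215, 150 and 249 CPM in the IP + LC tumors. Its log2 fold change was -1.80 (adjusted p = 0.0516), and LC replicate 1 lay below all 3 IP + LC tumors. Igfbp2 and Ndnf, picked after their values were seen, were the only genes of this list with a positive log2 fold change, 0.16 (adjusted p = 0.785) and 0.32 (adjusted p = 0.526). Igfbp2 encodes a growth factor binding protein that marks fully differentiated type 1 cells.

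Of 8 regulators of type 1 fate, 3 were lower, 0 were higher and 5 did not pass, against 19.6% lower among all tested genes, and the median log2 fold change was -0.75. LC replicate 1 was the lowest LC tumor for 7 of the 8. The 3 were the lung lineage factor Nkx2-1 (log2 fold change -1.25, adjusted p = 0.0156), Gata6 (-1.89, adjusted p = 0.00643) and Grhl2 (-2.01, adjusted p = 0.0155), all named after their values were seen. The 2 most abundant of the list, Nfib and the YAP partner protein gene Wwtr1 (TAZ), had log2 fold changes of -1.03 (adjusted p = 0.229) and -0.47 (adjusted p = 0.2002). The remaining 3, Klf5 (0.33), Yap1 (0.28) and Tead1 (0.16), had positive log2 fold changes that did not pass. Nfib was at 49.9 CPM in LC replicate 1 and at 389 and 420.3 CPM in the other LC tumors.

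Genes of other lung cells also differed, and their counts stand against the same 19.6% lower and 16.8% higher among all tested genes. Summed over its list, each of the following was lower in every IP + LC tumor than in every LC tumor. Type 2 alveolar genes had 38405 to 48307 CPM in LC and 7396 to 12825 CPM in IP + LC tumors, with 11 of 12 lower past the limit and a median log2 fold change of -1.71. Their 2 most abundant genes, Sftpc and Sftpa1, both encode surfactant proteins and had log2 fold changes of -2.11 and -2.54. Airway genes went from 49247 to 58156 CPM in LC down to 3361 to 7225 CPM (6 of 6 lower, median -3.28), with log2 fold changes of -3.22 and -3.07 for the club cell genes Scgb1a1 and Cyp2f2.
Endothelial genes had 2459 to 4366 CPM in LC and 557 to 817 CPM in IP + LC tumors (12 of 12 lower, median -2.36), with -2.46 for the receptor gene Calcrl and -3.21 for Tmem100. The list of 4 general epithelial genes (4 of 4 lower, median -1.16), among them the adhesion gene Cdh1 (-0.94) and the tight junction gene Cldn3 (-2.04), the mesothelial list (5 of 5 tested, median -2.30), the cardiac list (6 of 6 tested, median -2.46) and the lymphatic list (2 of 3 tested, median -1.41) were lower as well, with -1.64 for Lyve1, a hyaluronan receptor of lymphatic vessels, and -1.41 for Mmrn1. The log2 fold changes were -0.92 for Msln and -2.53 for Gpm6a of the mesothelial list, and -2.14 for Actc1 and -2.79 for Myl7 of the cardiac list. Defining markers of lymphatic vessels, Prox1 and Ccl21a, and of mesothelium, Wt1, had too few UMIs for the test. The part of these cells in the levels of the 8 genes was not tested.

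Other lists did not share this direction. The proliferation list had 113 to 449 CPM in LC and 957 to 1133 CPM in IP + LC tumors (6 of 7 higher, 0 lower), with log2 fold changes of 2.96 for the topoisomerase gene Top2a (adjusted p = 0.00160) and of 1.25 for Cdk1, which did not pass (adjusted p = 0.221). Of 6 macrophage genes, 2 were higher, 0 were lower and 4 did not pass. The complement genes C1qa (1.36, adjusted p = 0.0896) and C1qb (1.12, adjusted p = 0.154) were the most abundant, and C1qa had 568 CPM in LC replicate 1 against 157 and 110.2 CPM in the other LC tumors. Of 4 tested T cell genes, 0 passed in either direction (edgeR, unadjusted p of 0.0768 to 0.589), with 0.25 for Cd3d and -0.21 for Cd3g. Fibroblast genes had 1617 to 2058 CPM in LC and 1719 to 1837 CPM in IP + LC tumors. Of 8 fibroblast genes, 4 were lower and 2 were higher. The 2 most abundant were Dcn, a proteoglycan gene that was lower (-2.11, adjusted p = 0.00165), and the collagen gene Col3a1, which did not pass (0.59, adjusted p = 0.106). The 2 that rose, named after their values were seen, were the type I collagen genes Col1a1 (1.42, adjusted p = 0.00844) and Col1a2 (0.67, adjusted p = 0.0355). Genes of the transitional state between type 2 and type 1 cells, 9 of 10 tested, were lower for 2, higher for 1 and not called for 6. Lgals3 and Krt8, the most abundant of them, had log2 fold changes of 0.50 (adjusted p = 0.194) and 0.31 (adjusted p = 0.463), and the only 1 that rose was the EGF receptor ligand gene Areg (2.05, adjusted p = 0.00644). The 2 that fell were the keratin genes Krt19 (-1.59, adjusted p = 0.00336) and Krt18 (-0.78, adjusted p = 0.0409). Areg, Krt19 and Krt18 were named after their values were seen.

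**Figure D3:**
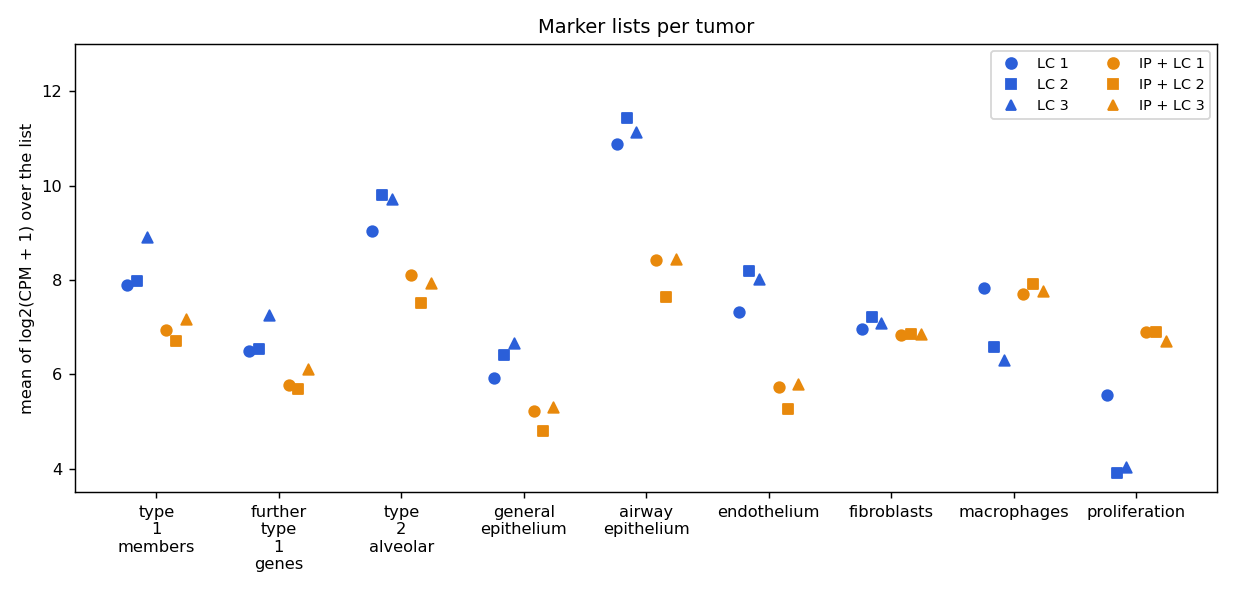
Mean of log2(CPM + 1) over the tested genes of each marker list in each tumor (LC blue, IP + LC orange, replicates by symbol). The type 1 genes had 7.89 to 8.92 in LC and 6.70 to 7.17 in IP + LC tumors, and type 2, general epithelial, airway and endothelial lists were also lower in every IP + LC tumor.

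As a description, with no test, the mean log2 level of the 8 type 1 genes was set against that of other lists within each tumor. Type 1 minus type 2 was -1.15, -1.82 and -0.79 in the LC tumors and -1.16, -0.80 and -0.76 in the IP + LC tumors, so the groups overlapped. Type 1 minus general epithelium was 1.58 to 2.25 in LC and 1.71 to 1.90 in IP + LC tumors and overlapped too. Type 1 minus airway epithelium, in contrast, was -3.45 to -2.22 in LC and -1.47 to -0.93 in IP + LC tumors, and type 1 minus endothelium was -0.20 to 0.90 in LC and 1.22 to 1.44 in IP + LC tumors. In both cases the type 1 genes stood higher relative to the other list in every IP + LC tumor. Relative to fibroblast genes the order was the opposite, with 0.77 to 1.83 in LC and -0.14 to 0.31 in IP + LC tumors.

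The spread between tumors was larger in the LC group for 8 of 8 genes and for 75.2% of all tested genes. The CV of the 8 genes was 18.0% to 84.4% in the LC group and 9.27% to 31.3% in the IP + LC group. LC replicate 3 had the highest level of the LC tumors for 8 of 8 genes, whereas it was the highest for 31.9% of all tested genes. Its CPM was 1.38-fold (Emp2) to 3.28-fold (Akap5) that of LC replicate 2, with a median of 1.89 over the 8 genes and of 0.990 over all tested genes. A ratio above 1.3 was found for 8 of 8 type 1 genes, for 18 of the 23 further type 1 genes and for 18.8% of all tested genes, but for 0 of 12 type 2 genes, 0 of 6 airway genes and 0 of 12 endothelial genes. Other epithelial lists lay between, with 2 of 4 general epithelial genes (median 1.27), 3 of 9 transitional genes and 2 of 8 regulators of type 1 fate (median 1.17) above 1.3. All 8 of these regulators were highest in LC replicate 3. For Ager the ratio was 2.13 (95% interval 1.98 to 2.30) and for Emp2 it was 1.38 (1.24 to 1.53), where the exact binomial intervals cover counting error only. This comparison is between 2 libraries of 1 group and was made after the values were seen. The limit of 1.3 lies just below the lowest of the 8 ratios (1.38), so the count of 8 of 8 follows from that limit. LC replicate 3 also had more genes with at least 1 UMI than LC replicate 2 (24293 against 20522) and more mitochondrial UMIs (12.0% against 9.38%), and their part in the ratio was not tested.

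**Figure D4:**
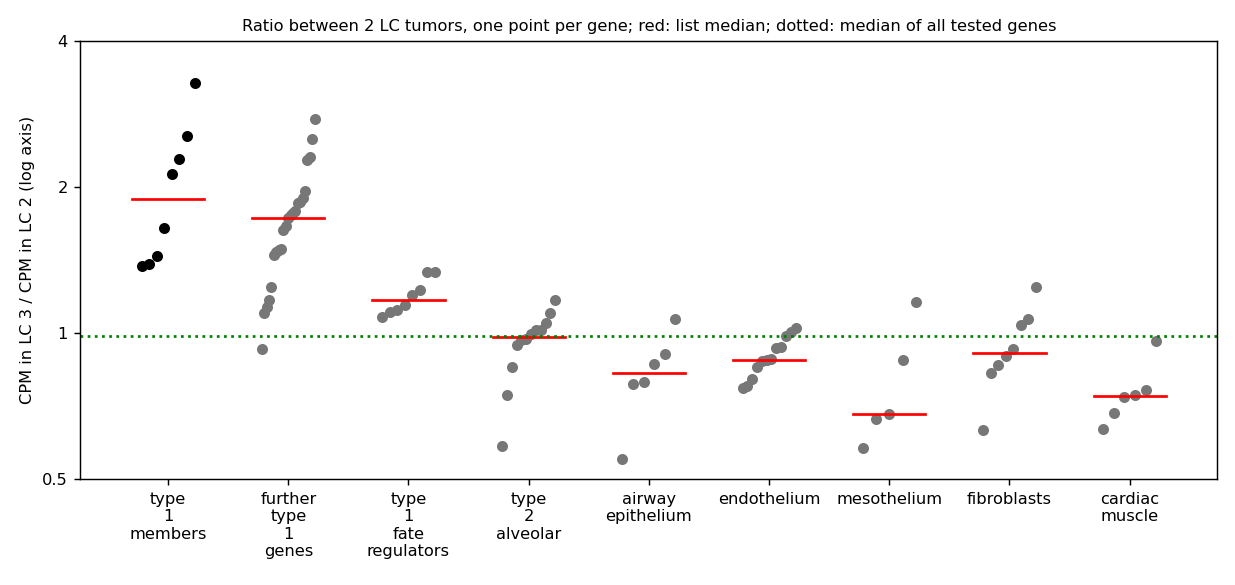
Ratio of the CPM in LC replicate 3 to that in LC replicate 2 (log axis), 1 point per tested gene, by list. Red lines are list medians and the dotted line is the median of all tested genes (0.990). All 8 type 1 genes lie above 1.3, while the type 2 median is 0.985 and the endothelial median 0.882.

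LC replicate 1 was the lowest LC tumor for 4 of the 8 genes (Rtkn2, Clic5, Akap5 and Pdpn), near the 43.8% of all tested genes that were lowest there. It was the lowest for 12 of 12 endothelial and 11 of 12 type 2 genes, but for 3 of 8 fibroblast and 0 of 6 macrophage genes. Ager, Hopx, Aqp5 and Emp2 lay between LC replicates 2 and 3. Compared with LC replicate 1, LC replicate 3 had 1.09 times the level of Ager (95% interval 1.01 to 1.18, exact binomial), 4.68 times that of Rtkn2 (3.10 to 7.39) and 4.59 times that of Akap5 (3.32 to 6.49). Within the IP + LC group, replicate 2 had the lowest level for 7 of 8 genes (all but Pdpn), against 31.9% of all tested genes, and replicate 3 had the highest for 7 of 8 (all but Rtkn2), against 36.5%. The summed type 2, airway, endothelial, general epithelial, mesothelial and cardiac genes were also lowest in IP + LC replicate 2, whereas the lymphatic sum was lowest in replicate 1. Of these sums, that of the type 2 genes was highest in replicate 1 and the others in replicate 3.

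Of all tested genes, the 5 whose profile over the 6 tumors was most like that of Ager were Aqp5, Clic3, Tcta, Uqcrh and Vamp8, with Pearson's r of 0.996 to 0.990 on log2(CPM + 1). The values describe 6 points in 2 separate groups, so no test was made. Aqp5 is itself one of the 8 genes, and Clic3 belongs to the same channel family as Clic5. Clic3 had 265, 132 and 278 CPM in the LC tumors and 38.4, 37.9 and 58.1 CPM in the IP + LC tumors, with the same dip in LC replicate 2 as Ager.

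**Figure D5:**
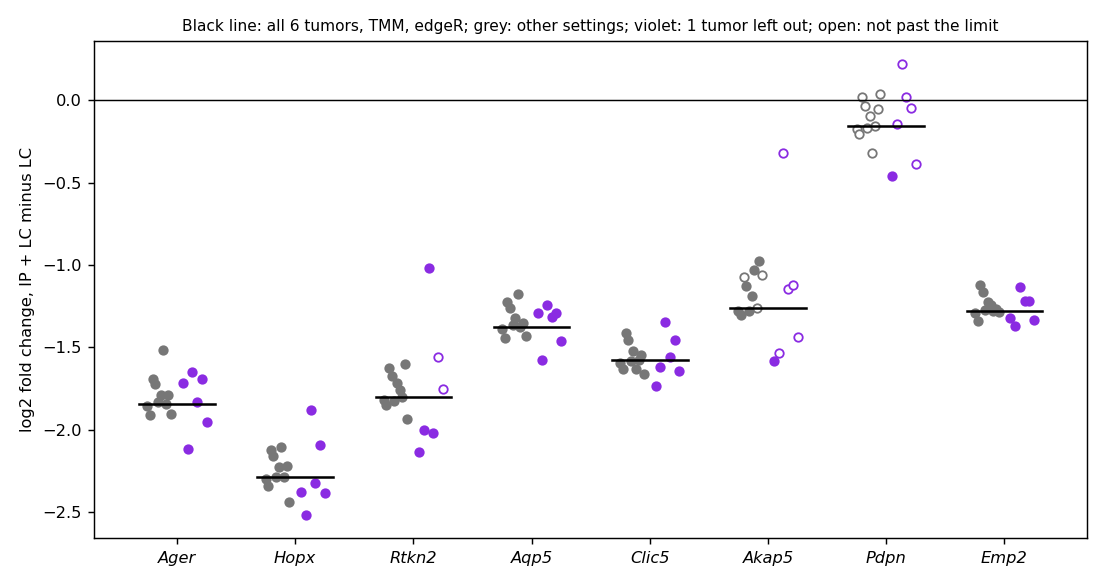
Log2 fold change of each type 1 gene with all 6 tumors (black lines), under other settings (grey) and with 1 tumor left out (violet), with open points where the limit was not passed. Ager, Hopx, Aqp5, Clic5 and Emp2 passed in all 16 alternatives, and Pdpn lay on both sides of 0.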

How the data were processed

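Tumor RNA of 3 LC mice and 3 IP + LC mice was measured by BRB-seq, a pooled 3′-end assay in which the oligo-dT primer carries a library barcode and a UMI. Per the labels and methods, the authors extracted UMIs with UMI-tools 1.1.1, trimmed reads with Trim Galore 0.6.7, aligned them to GRCm38 with HISAT2 2.2.1, assigned them to genes with featureCounts 2.0.1 and counted every different UMI per gene. Neither the annotation release nor the strand setting is given in the sources used here. The deposited values are raw UMI counts, 1 table per tumor.

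Counts were tested in R 4.3.3 with edgeR 4.0.16 (filterByExpr, minimum count 10 and minimum total 15, TMM, quasi-likelihood test between the groups, Benjamini-Hochberg adjustment, limit 0.1 as in the study's methods). Standard errors are the log2 fold change divided by the root of the F statistic. CPM uses the UMIs of the tested genes. At 3 UMIs the floor is 5.17 CPM in LC replicate 1 and 1.75 to 2.54 CPM elsewhere. Replicates are separate tumors by their titles, no pair agreed within counting noise (chi-square per degree of freedom at least 2.65), and same-numbered tumors of the groups were not paired by any label. The text names the 8 genes, the 2 most abundant genes of each other list where they are described, the 3 largest changes of the further type 1 list and the 5 profiles nearest to Ager, and says where another gene was added after its values were seen. The genes and lists were chosen with earlier results of these data known. Positions and overlaps came from GENCODE M21, in which all 31130 identifiers were found, and near-identical copies (81 bases at 95% identity) from blastn 2.17.0+. In simulated data with 10964 tested genes, the test found 91 of 93 genes changed by 2 and 27 of 97 changed by 1 on the log2 scale, with 21 false calls. Far fewer genes were changed in that simulation than passed in the tumors, so its rates need not hold for them. Alternatives were other scalings, filters, DESeq2 1.42.0, limma 3.58.1 voom, a limit of 0.05, a replicate block, thinning to 592733 UMIs (seed 1) and leaving out each tumor.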

Additional observations from a re-analysis of the deposited data

How the results depend on the processing

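Over 16 alternatives, 5 to 8 of the 8 type 1 genes were lower past the limit and 0 were higher, while 8.51% (no filter) to 28.7% (without LC replicate 1) of all genes tested were lower. Where 5 of 8 passed, these shares were 11.6% and 15.5%. Leaving out 1 tumor gave 5 to 8, and other settings gave 6 or 7. Ager (-2.12 to -1.52), Hopx (-2.52 to -1.88), Aqp5 (-1.58 to -1.17), Clic5 (-1.74 to -1.35) and Emp2 (-1.37 to -1.12) passed in all 16. Akap5 did not pass in 8 of 16, among them library size only (-1.08, adjusted p = 0.117) and thinned counts (-1.06, adjusted p = 0.149). The log2 fold change of Pdpn turned positive with library size only (0.017), thinned counts (0.039), without LC replicate 3 (0.22) and without IP + LC replicate 1 (0.021), and passed in 0 of these 4. It passed only without LC replicate 1 (-0.46). Without LC replicate 1, the difference between the groups (IP + LC minus LC) in the log2 ratio to Ager turned negative for Rtkn2 (-0.38) and Clic5 (-0.087). With 1 tumor left out, the ratio differences ran from -0.65 to -0.30 for Hopx, -0.38 to 0.66 for Rtkn2, 0.35 to 0.55 for Aqp5, -0.087 to 0.57 for Clic5, 0.27 to 1.29 for Akap5, 1.16 to 2.19 for Pdpn and 0.32 to 0.77 for Emp2. The cause of these shifts was not tested.

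With library size only, the median log2 fold change of all tested genes was 0.18 instead of 0.02 and 58.3% of calls were upward instead of 46.1%. Among all tested genes 4088 passed. This number was 2352 after thinning and 6233 with voom. Leaving out LC replicate 1 gave 6691, LC replicate 2 gave 2585, IP + LC replicate 1 gave 2660 and IP + LC replicate 2 gave 2265. With the replicate block, 7 of the 8 genes stayed lower and 0 were higher, and no call of the 8 changed. Deviations of same-numbered tumors from their group means correlated at 0.0226, -0.106 and 0.0945. With so few tumors per group these values cannot show whether the tumors were paired, and no label pairs them. In the shallowest library, LC replicate 1, Rtkn2, Akap5 and Pdpn had 25, 41 and 49 UMIs.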
